A study of Homo sapiens with 15 samples.

Results

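The transcripts of 10 genes were followed in breast cancer cells: the matrix metalloproteinases MMP1, MMP2, MMP3, MMP7, MMP9, MMP13 and MMP14, and their tissue inhibitors TIMP1, TIMP2 and TIMP3. They were taken by symbol from a table of 33158 genes, and all 10 were found in it. Values are FPKM, fragments scaled by transcript length and library size, a level per length that allows genes to be set side by side.

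The series holds 15 mRNA libraries in 5 groups of 3, from 3 established lines of triple negative breast cancer. SUM149PT and HCC1937 (SUM149 and HCC1937 in the labels) were each sorted by the surface markers CD44 and CD24 into cancer stem cells (CSCs, CD44+/CD24-/low) and non-CSCs. SUM159PT is labelled as cancer stem cells, but by the study's methods its RNA came from the unsorted line, which was regarded as made up mainly of such cells. No group received a treatment, each group comes from 1 line, and the labels do not say that the replicates came from separate cultures, so p-values measure the spread between these libraries, which may be technical. Both sorted lines were compared between fractions to ask which protease and inhibitor transcripts differ with the CSC phenotype, and the CSC-labelled groups were compared between lines.

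Matrix metalloproteinases are zinc-dependent endopeptidases that cut collagens, laminins, proteoglycans and many cell surface proteins. They are made as inactive proenzymes, held latent by a cysteine of the propeptide that binds the catalytic zinc, and once active they are blocked by TIMPs, which occupy the catalytic site. In breast tumours much of this activity comes from stromal cells, while carcinoma cells that have gained mesenchymal traits can also produce it.

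The coding stretch for the cysteine switch is shown for the 7 metalloproteinases because it is the sequence that makes these transcripts templates for latent enzymes, so that a level of RNA is not a level of activity. Capitals mark the cysteine codon and, in MMP2, also the 1 codon that departs from the conserved motif. Searching the GENCODE coding sequences in frame, the motif was found in full in 6 of the 7 and with 1 departing codon in MMP2. The zinc-binding motif of the catalytic domain was found in all 7, and neither motif in the 3 TIMPs.
MMP1: cccagaTGTggagtgcctgat
MMP2: ccacgcTGCggcAACccagat
MMP3: cccaggTGTggagttcctgat
MMP7: cccagaTGTggagtgccagat
MMP9: ccacggTGCggggtcccagac
MMP13: ccaagaTGCggggttcctgat
MMP14: ccccgaTGTggtgttccagac
On GRCh38 these stretches lie at chr11:102797318-102797338 in exon 2 of 10 of MMP1, chr16:55483053-55483073 in exon 2 of 13 of MMP2, chr11:102842734-102842754 in exon 2 of 10 of MMP3 and chr11:102527819-102527839 in exon 2 of 6 of MMP7. Those of the others lie at chr20:46010016-46010036 in exon 2 of 13 of MMP9, chr11:102955314-102955334 in exon 2 of 10 of MMP13 and chr14:22841926-22841946 in exon 3 of 10 of MMP14.

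CD24 transcript followed the sort in both lines, while CD44 transcript overlapped between the fractions of HCC1937. CD24 was at 7.74 ± 0.198 FPKM (mean ± SD, n = 3) in SUM149PT CSCs and 139 ± 6.53 in non-CSCs, and at 23.3 ± 0.747 and 150.0 ± 14.3 in the HCC1937 fractions. CD44 differed less, at 84.4 ± 2.08 against 64.5 ± 2.86 FPKM in SUM149PT and 106 ± 6.33 against 97.8 ± 3.98 in HCC1937, and was not called in either line. SUM159PT held 28.8 ± 0.542 FPKM of CD44 and 0.729 ± 0.0410 FPKM of CD24.

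The CSC fractions of both lines had more interstitial collagenase and gelatinase A transcript, while matrilysin, gelatinase B, collagenase 3 and the membrane type enzyme were lower in SUM149PT CSCs. The effect on gelatinase B and the membrane type enzyme differed from that in HCC1937, where matrilysin and collagenase 3 were too low for a test within the line. Inhibitor transcripts were abundant in every group. TIMP3 was called in both lines in opposite directions, up in SUM149PT CSCs and down in HCC1937 CSCs, and TIMP1 libraries were also in opposite order in the lines, with neither fold change called.

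A gene was called where its adjusted p did not exceed 0.05 and its log2 fold change was 1 or more in size. In SUM149PT, 7 of the 10 genes were called, 3 of them higher and 4 lower in CSCs. Of 16037 genes tested there, 34.9% were called by that rule, with 12.8% higher and 22.1% lower. In HCC1937, where 8 of the 10 passed the expression minimum, 3 were called higher and 1 lower, against 8.71% of 15582 genes tested (2.71% higher, with 935 genes lower). The median absolute log2 fold change of the tested members was 1.59 in SUM149PT, beside 0.71 for all genes, and 0.86 in HCC1937, beside 0.24. All fold changes are differences of mean log2(FPKM + 0.1), a scale that understates changes of low genes, and FPKM in bulk RNA cannot tell fewer producing cells from less RNA per cell. Quantile normalization moved the median log2 fold change of all genes in SUM149PT from -0.11 to 0.10 and the higher share of its calls from 36.5% to 51.2%. In HCC1937 a common library sum moved the median from -0.03 to 0.09 and the higher share from 31.1% to 42.2%. The members called in each line, and their directions, were the same under the 3 other scalings tried.

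**Figure D1:**
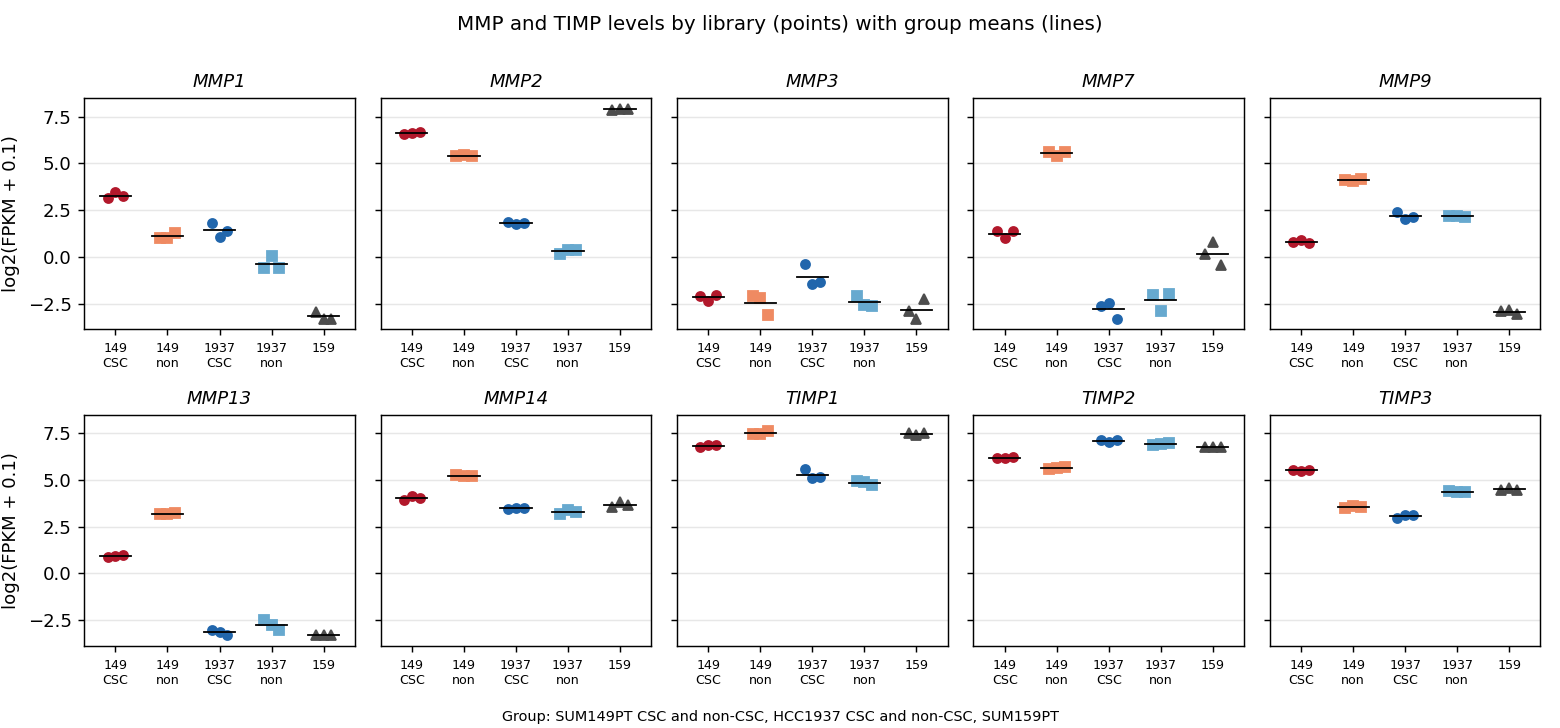
Levels of the 10 genes on the log2(FPKM + 0.1) scale (vertical axis) in the 5 groups (horizontal axis); each point is a library and each line a group mean. MMP2 spans from about 1 FPKM in HCC1937 non-CSCs to 235 to 243 FPKM in SUM159PT, while TIMP1 and TIMP2 stay above 26 FPKM in all 15 libraries.

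MMP1, the interstitial collagenase that cuts fibrillar collagens, measured 8.65, 11.03 and 9.31 FPKM in the 3 SUM149PT CSC libraries and 1.93, 1.88 and 2.36 in the non-CSC libraries. In HCC1937 the values were 3.44, 2.02 and 2.47 FPKM in CSCs and 0.549, 0.933 and 0.556 in non-CSCs. Every CSC library lay above every non-CSC library of its own line. The log2 fold change was 2.18 ± 0.13 (SE, adjusted p = 3.25e-05) in SUM149PT and 1.82 ± 0.27 (adjusted p = 0.00574) in HCC1937, and the difference between the lines, 0.36 ± 0.31, did not pass (adjusted p = 0.348), though it passed with a pseudocount of 1 (0.69, adjusted p = 0.0104). SUM159PT listed MMP1 at 0.0305 FPKM in replicate 1 and at 0 in the others.

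MMP13, collagenase 3, went the other way in SUM149PT. Its CSC libraries held 1.74, 1.77 and 1.85 FPKM and its non-CSC libraries 8.90, 8.84 and 9.24 FPKM. The fractions were far apart, with a log2 fold change of -2.27 ± 0.05 (adjusted p = 2.38e-06). HCC1937 was near the bottom of the scale and below the minimum for testing in that line, at 0.0234, 0.0149 and 0 FPKM in CSCs and 0.0804, 0.0482 and 0.0238 FPKM in non-CSCs. These fractions also did not overlap, with non-CSCs the higher as in SUM149PT. The nearest values were 0.0234 and 0.0238 FPKM, and the levels were too low for a fold change. SUM159PT listed the gene at 0 in 3 of 3 libraries. The difference of the CSC effect between the lines was -1.86 ± 0.18 (adjusted p = 1.05e-05), a call lost with a pseudocount of 0.01 (-0.86, adjusted p = 0.269). At the HCC1937 levels a pseudocount of 0.1 flattens a fold change, so this value does not show that the lines differ in the fold of MMP13. The pair of collagenases thus had opposite directions in the same SUM149PT libraries.

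MMP3, stromelysin 1, which degrades proteoglycans and activates other proenzymes, was low everywhere. HCC1937 CSCs gave 0.654, 0.258 and 0.293 FPKM and non-CSCs 0.130, 0.0661 and 0.0627 FPKM. The fractions of HCC1937 did not overlap, and the log2 fold change was 1.36 ± 0.32 (adjusted p = 0.0290). That call missed the p limit without HCC1937 CSC replicate 3 (1.499, adjusted p = 0.0518) and without HCC1937 non-CSC replicate 1 (1.53, adjusted p = 0.0522), 2 (1.29, adjusted p = 0.0935) or 3 (1.28, adjusted p = 0.0880). With a pseudocount of 1 it missed both limits (0.36, adjusted p = 0.0514). In SUM149PT the fractions overlapped, at 0.135, 0.0936 and 0.143 FPKM against 0.131, 0.118 and 0.0162 FPKM (log2 fold change 0.30 ± 0.28, adjusted p = 0.368). The difference between the lines was -1.06 ± 0.46 and did not pass (adjusted p = 0.0696), but passed with replicate numbers as a block (adjusted p = 0.0492) and without SUM149PT non-CSC replicate 3 (adjusted p = 0.0162) or HCC1937 CSC replicate 2 (adjusted p = 0.0452).

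MMP7, matrilysin, is the small epithelial member that lacks the hemopexin domain. SUM149PT non-CSCs held 48.0, 42.2 and 49.3 FPKM, and CSCs 2.46, 1.88 and 2.53 FPKM. This was the widest separation among the members within a line, a ratio of mean FPKM of 20.3 and a log2 fold change of -4.29 ± 0.13 (adjusted p = 3.98e-06), which only 1.22% of the tested genes exceeded in absolute size. HCC1937 stayed at or below 0.151 FPKM in all 6 libraries and overlapped between fractions. SUM159PT gave 0.998, 1.65 and 0.641 FPKM. The difference of the CSC effect between the lines was -3.80 ± 0.39 (adjusted p = 1.76e-05), a comparison in which the HCC1937 level was too low for a fold change of its own.

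MMP2, gelatinase A, which is typical of mesenchymal cells and is activated at the cell surface by MMP14, was at 94.2, 99.96 and 100.5 FPKM in SUM149PT CSCs and at 41.4, 43.5 and 42.3 FPKM in non-CSCs. HCC1937 had 3.52, 3.22 and 3.46 FPKM in CSCs and 1.02, 1.18 and 1.20 FPKM in non-CSCs. The fractions were separated in both lines, although the lines sat at very different levels. The log2 fold changes were 1.21 ± 0.06 (adjusted p = 1.42e-05) and 1.51 ± 0.09 (adjusted p = 3.04e-04). Their difference, -0.30 ± 0.10 (adjusted p = 0.0246), took the opposite sign with a pseudocount of 1, at 0.15 (adjusted p = 0.104), and was lost with replicate numbers as a block (adjusted p = 0.0631) and without SUM149PT CSC replicate 1 (adjusted p = 0.0588) or SUM149PT non-CSC replicate 2 (adjusted p = 0.0536). SUM159PT had the highest MMP2 of all groups, 235, 243 and 237 FPKM.

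MMP9, gelatinase B, did not follow gelatinase A. SUM149PT CSCs held 1.62, 1.76 and 1.55 FPKM and non-CSCs 17.0, 16.7 and 18.1 FPKM, a clear gap with a log2 fold change of -3.32 ± 0.07 (adjusted p = 1.82e-06). HCC1937 CSCs gave 5.17, 3.89 and 4.32 FPKM and non-CSCs 4.37, 4.47 and 4.30 FPKM. There the ranges overlapped (log2 fold change 0.02 ± 0.11, adjusted p = 0.931), and the difference between the lines was -3.34 ± 0.13 (adjusted p = 4.03e-08). SUM159PT was at 0.0364, 0.0371 and 0.0192 FPKM, so its gelatinase transcript was almost all MMP2.

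MMP14, the membrane type enzyme that cuts collagen at the cell surface and activates proMMP2, was present in all groups. SUM149PT CSCs had 14.96, 17.3 and 16.4 FPKM and non-CSCs 38.2, 37.1 and 37.0 FPKM, and the log2 fold change was -1.20 ± 0.07 (adjusted p = 3.40e-05). In the CSCs of SUM149PT, MMP2 was therefore higher and its activator lower. HCC1937 values were 10.9, 11.2 and 11.1 FPKM in CSCs and 8.85, 10.3 and 9.63 FPKM in non-CSCs, without overlap but short of the limit (log2 fold change 0.20 ± 0.08, adjusted p = 0.124). The difference between the lines was -1.40 ± 0.10 (adjusted p = 1.66e-06).

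**Figure D2:**
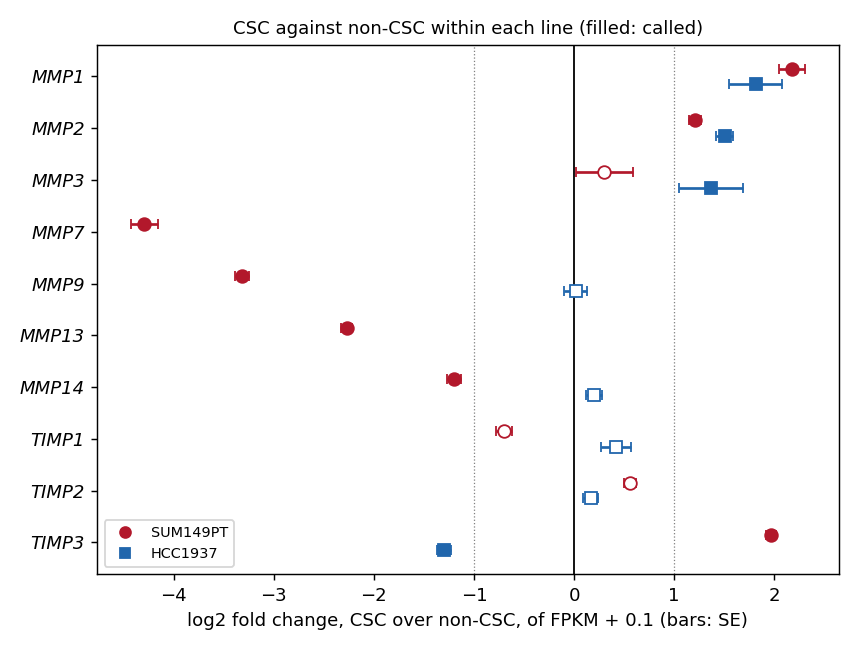
Log2 fold change of CSCs over non-CSCs on the log2(FPKM + 0.1) scale (horizontal axis, bars are SE) for each gene in SUM149PT (circles) and HCC1937 (squares), 3 libraries a fraction; filled symbols were called, dotted lines mark absolute values of 1, and MMP7 and MMP13 were too low to test in HCC1937. MMP1 and MMP2 lie to the right in both lines, MMP7, MMP9, MMP13 and MMP14 to the left in SUM149PT, and TIMP3 on opposite sides at 1.97 and -1.30.

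TIMP1, a secreted inhibitor with weak action on MMP14, measured 107, 117 and 118 FPKM in SUM149PT CSCs and 178, 177 and 199.8 FPKM in non-CSCs. HCC1937 CSCs had 47.6, 34.1 and 35.3 FPKM and non-CSCs 30.5, 29.01 and 26.9 FPKM. The libraries of the fractions were fully apart, and in opposite order in the lines. The log2 fold change of -0.70 ± 0.08 in SUM149PT passed the p limit (adjusted p = 4.12e-04) but not the fold limit, and that of 0.42 ± 0.15 in HCC1937 did not pass (adjusted p = 0.0928). The difference between them was -1.12 ± 0.17 (adjusted p = 2.86e-04).

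TIMP2, which also takes part in the activation of proMMP2 by MMP14, had the smallest range of group means among the 9 members that reached 1 FPKM. It was at 73.3, 72.7 and 73.9 FPKM in SUM149PT CSCs and 47.3, 49.1 and 52.4 FPKM in non-CSCs, with a log2 fold change of 0.56 ± 0.06 (adjusted p = 3.45e-04) that fell short of the fold limit. HCC1937 held 139.9, 129.9 and 141 FPKM in CSCs and 117, 123 and 126 FPKM in non-CSCs (log2 fold change 0.16 ± 0.07, adjusted p = 0.155). The CSC libraries were the higher ones in both lines, and the effects differed by 0.40 ± 0.09 (adjusted p = 0.00237).

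TIMP3, the inhibitor that is bound to the extracellular matrix and also blocks several ADAM and ADAMTS proteases, was the member called in both lines with opposite signs. SUM149PT CSCs had 46.0, 44.7 and 46.3 FPKM against 11.3, 11.9 and 11.6 FPKM in non-CSCs. HCC1937 CSCs had 7.82, 8.54 and 8.52 FPKM against 21.2, 20.3 and 20.1 FPKM in non-CSCs. Thus all 3 CSC libraries were above the non-CSC libraries in the first line and all 3 were below them in the second. The log2 fold changes were 1.97 ± 0.05 (adjusted p = 3.02e-06) and -1.30 ± 0.07 (adjusted p = 2.49e-04), and their difference was 3.26 ± 0.08 (adjusted p = 4.87e-09).

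Over the 12 sorted libraries, the difference of the CSC effect between the lines passed for 8 of the 10 genes, 2 with a higher and 6 with a lower effect in SUM149PT. Of all 16451 genes tested, 61.1% passed that test, 28.1% higher and 33.0% lower. With 3 libraries against 3, an exact permutation test of a single gene within a line cannot give a p below 0.10. The p-values above therefore rest on limma, which combines each gene's own spread with the spread it estimates across all genes. The median of all genes in this test was -0.08, and -0.17 with a common sum or 0.06 with quantile normalization.

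Summed by library, the 7 metalloproteinase transcripts came to 124 to 134 FPKM in SUM149PT CSCs and 150.3 to 158 FPKM in non-CSCs. In HCC1937 the sums were 20.6 to 23.7 and 15.1 to 17.1 FPKM, and in SUM159PT 248 to 259 FPKM. The 3 inhibitors summed to 226 to 238 and 237 to 264 FPKM in the SUM149PT fractions, 173 to 195 and 168 to 173 FPKM in the HCC1937 fractions, and 304 to 311 FPKM in SUM159PT. The sum of these 3 inhibitors therefore exceeded that of these 7 metalloproteinases in all 15 libraries. The ratio was 8.23 to 8.54 in HCC1937 CSCs and 10.1 to 11.1 in HCC1937 non-CSCs. In SUM149PT it was 1.75 to 1.83 in CSCs and 1.52 to 1.67 in non-CSCs, and in SUM159PT 1.17 to 1.26. These ratios are taken within a library, so multiplying a library by 1 factor leaves them as they are; they were not computed under quantile normalization, and they depend on the genes summed. Over all 23 metalloproteinases and 4 TIMPs listed, a sum chosen after seeing the data, the ratios were 1.01 to 1.09 in SUM159PT. In HCC1937 they were 4.04 to 4.38 in CSCs and 4.12 to 4.39 in non-CSCs, which overlap. In SUM149PT they were 1.35 to 1.42 in CSCs and 1.02 to 1.15 in non-CSCs.

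The groups also differed in which gene was the largest part of each sum. MMP2 was 74.7 to 76.1% of the sum of the 7 metalloproteinases in SUM149PT CSCs and 93.8 to 94.9% in SUM159PT, whereas MMP14 was the largest part in HCC1937, at 45.8 to 54.1% in CSCs and 58.4 to 60.5% in non-CSCs. Over all 23 listed genes MMP15 was the largest part in HCC1937, at 33.6 to 37.3% in CSCs and 44.2 to 49.6% in non-CSCs. In SUM149PT non-CSCs the largest of the 7, 28.9 to 31.2%, was MMP7 in replicates 1 and 3 and MMP2 in replicate 2. TIMP1 was the largest inhibitor transcript in SUM149PT and SUM159PT, and TIMP2 in HCC1937.

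**Figure D3:**
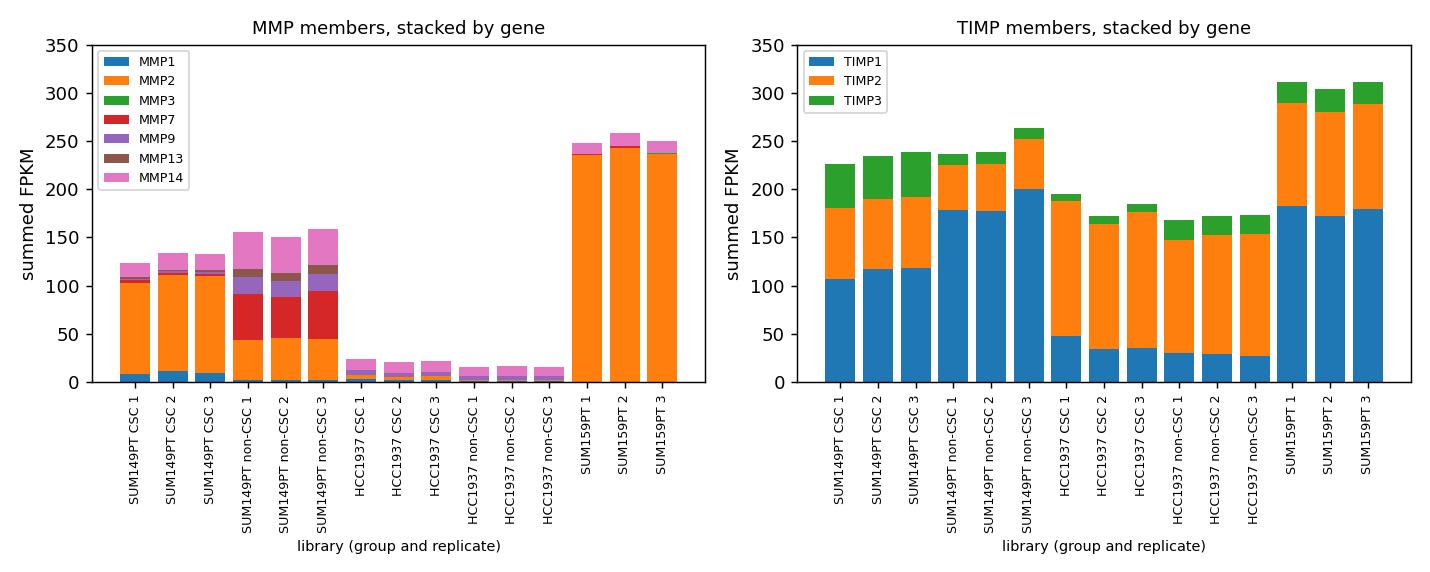
Summed FPKM (vertical axis, from 0) of the 7 metalloproteinases (left) and the 3 TIMPs (right) in each of the 15 libraries (horizontal axis), stacked by gene. MMP2 fills most of the bars of SUM149PT CSCs and SUM159PT, the bars of HCC1937 reach 15.1 to 23.7 FPKM, and every TIMP bar is taller than the MMP bar of the same library.

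Ranked over the 5 groups by mean FPKM, MMP1 fell from SUM149PT CSCs (9.66 ± 1.23) to HCC1937 CSCs (2.64 ± 0.727), SUM149PT non-CSCs (2.06 ± 0.259), HCC1937 non-CSCs (0.679 ± 0.220) and SUM159PT, and of the neighbours only HCC1937 CSCs and SUM149PT non-CSCs overlapped. MMP2 was ordered SUM159PT (238 ± 4.02), SUM149PT CSCs (98.2 ± 3.47), SUM149PT non-CSCs (42.4 ± 1.02), HCC1937 CSCs (3.40 ± 0.158) and HCC1937 non-CSCs (1.13 ± 0.0992), with no overlap between neighbours. For MMP7, the order SUM149PT non-CSCs (46.5 ± 3.78), SUM149PT CSCs (2.29 ± 0.355), SUM159PT (1.10 ± 0.514) and the HCC1937 fractions had overlap only between the last pair. MMP9 and MMP13 were likewise highest in SUM149PT non-CSCs, at 17.3 ± 0.721 and 8.99 ± 0.216 FPKM, so 3 of the 4 genes lowered in SUM149PT CSCs had levels of at most 5.17 FPKM in every library outside that fraction.

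MMP14 was highest in SUM149PT non-CSCs (37.4 ± 0.676 FPKM), followed by SUM149PT CSCs (16.2 ± 1.20), SUM159PT (12.8 ± 1.39), HCC1937 CSCs (11.03 ± 0.137) and HCC1937 non-CSCs (9.60 ± 0.740) without overlap between neighbours. MMP3 was highest in HCC1937 CSCs, and the remaining 4 groups overlapped with their neighbours. TIMP1 in SUM149PT non-CSCs (185 ± 12.8) overlapped with SUM159PT (178 ± 5.71), and the others followed without overlap. TIMP2 ran from HCC1937 CSCs (137 ± 6.03) to SUM149PT non-CSCs (49.6 ± 2.58), and TIMP3 from SUM149PT CSCs (45.7 ± 0.864) to HCC1937 CSCs (8.30 ± 0.408), without overlap between neighbours. The place of SUM159PT in these orders depends on scaling: the full order was the same for 6 of the 10 genes when libraries were brought to a common sum, and for 6 of the 10 when they were brought to a common upper quartile.

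SUM159PT was the library set that stood apart. Its FPKM values summed to 634746 to 652082 over all genes, against 291276 to 366532 in the 12 sorted libraries, and 8534 to 8670 genes exceeded 1 FPKM, against 11249 to 11997. The ratio of low values shared with SUM149PT CSC replicate 1, which tracks what a single fragment is worth, had its commonest value between 0.927 and 1.17 in the other 14 libraries. The commonest value rested on 13 to 139 genes per library (14 to 23 in SUM159PT), and read depth is not known. The median log2 fold change of all 15788 genes in the CSC-labelled comparison was -0.66 for SUM159PT against SUM149PT CSCs and -0.88 against HCC1937 CSCs. With a common sum these medians were -1.70 and -1.87, and with quantile normalization both were 0.02, and 11.6% and 13.5% of calls were higher with a common sum, 50.5% and 49.5% with quantile normalization, and 39.6% and 39.8% with a common upper quartile, against 31.5% and 28.1% in the FPKM as deposited.

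The 3 CSC-labelled groups were compared in a single fit of 9 libraries, and the comparisons share samples. SUM159PT against SUM149PT CSCs called 6 of 10 members, 1 higher and 5 lower, beside 63.5% of all genes (20.0% higher and 43.5% lower). SUM159PT against HCC1937 CSCs called 7 of 10, 4 higher and 3 lower, beside 65.6% (18.4% higher and 47.2% lower). Both shares are close to those of all genes. HCC1937 CSCs against SUM149PT CSCs called 8 of 10, 2 higher and 6 lower, beside 43.7% (25.9% higher and 17.9% lower).

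MMP7 (-1.08) and TIMP3 (-1.02) lay near the fold limit against SUM149PT CSCs: the MMP7 call was lost without SUM159PT replicate 3 (-0.77), with a common upper quartile (-0.70) and with a pseudocount of 0.01 (adjusted p = 0.215) or 1 (-0.67), and took the opposite sign with quantile normalization (0.43). The TIMP3 call was lost with a common upper quartile (-0.62), with a pseudocount of 1 (-0.99) and without SUM159PT replicate 1 (-0.99). Other calls were gained: MMP3 (-1.65, adjusted p = 0.00579) and MMP14 (-1.43, adjusted p = 1.91e-06) were called lower with a common sum, and TIMP1 (1.05, adjusted p = 1.89e-05) was called higher with a common upper quartile. The members called were thus 0 higher and 7 lower with a common sum, 2 and 3 with a common upper quartile, and 0 and 4 with quantile normalization.

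Lower MMP1 and MMP9 in SUM159PT were called against either sorted CSC group under every scaling, with log2 fold changes of -6.47 ± 0.20 (adjusted p = 9.40e-09) and -3.74 ± 0.12 (adjusted p = 9.56e-09) against SUM149PT CSCs, and -4.62 ± 0.20 (adjusted p = 5.55e-08) and -5.12 ± 0.12 (adjusted p = 1.67e-09) against HCC1937 CSCs. MMP2 was higher than in HCC1937 CSCs by 6.09 ± 0.07 (adjusted p = 2.71e-10), a ratio of mean FPKM of 70.1. That ratio depends on scaling: the MMP2 means were 143 in SUM159PT and 4.09 in HCC1937 CSCs with a common sum. With a common upper quartile, MMP2 had means of 454 and 2.95. Against SUM149PT CSCs its log2 fold change of 1.28 ± 0.07 (adjusted p = 2.06e-07) was 0.19 with a common sum and 0.47 with quantile normalization, short of the fold limit. TIMP1 was higher in SUM159PT than in HCC1937 CSCs (2.21 ± 0.13, adjusted p = 3.60e-07), and MMP7 likewise (2.99 ± 0.33, adjusted p = 3.09e-05), although with a pseudocount of 1 the MMP7 value was 0.98 and no longer called. MMP13 was lower than in SUM149PT CSCs (-4.24 ± 0.09, adjusted p = 1.82e-09).

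The other calls against HCC1937 CSCs were MMP3 and TIMP3. MMP3 was lower in SUM159PT (log2 fold change -1.75 ± 0.34, adjusted p = 0.00112), a call lost with quantile normalization (-0.76, adjusted p = 0.146) and with a pseudocount of 1 (-0.41). TIMP3 was higher (1.43 ± 0.07, adjusted p = 1.42e-07), a call lost with a common sum (0.43). TIMP2 (-0.34) became called lower with a common sum (-1.35, adjusted p = 3.61e-07) and was 0.25 with a common upper quartile, and MMP13 (-0.17) became called lower with a pseudocount of 0.01 (-1.02, adjusted p = 0.0401).

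Between the sorted CSC fractions, HCC1937 had less MMP2 (log2 fold change -4.81 ± 0.07, adjusted p = 8.09e-10), TIMP3 (-2.45 ± 0.07, adjusted p = 2.06e-08), MMP1 (-1.86 ± 0.20, adjusted p = 4.19e-05), TIMP1 (-1.56 ± 0.13, adjusted p = 7.25e-06), MMP7 (-4.06 ± 0.33, adjusted p = 7.11e-06) and MMP13 (-4.07 ± 0.09, adjusted p = 4.71e-09), and more MMP9 (1.38 ± 0.12, adjusted p = 8.83e-06). These 7 calls and their directions held under each of the scalings. MMP3 was called higher by 1.09 ± 0.34 (adjusted p = 0.0167), and that call was lost under upper quartile scaling (0.93) and quantile normalization (0.84), with a pseudocount of 0.01 (adjusted p = 0.135) or 1 (0.31), and without SUM149PT CSC replicate 2 (0.99) or HCC1937 CSC replicate 1 (0.75). MMP14 and TIMP2 passed the p limit only, at -0.55 ± 0.10 and 0.90 ± 0.06.

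On the map (GRCh38), 4 of the 10 genes lie together on chromosome 11, where 9 metalloproteinase genes span 435 kb from 102520508 to 102955734, all transcribed from the minus strand, in the order MMP7, MMP20, MMP27, MMP8, MMP10, MMP1, MMP3, MMP12 and MMP13. MMP2 lies at chr16:55389700-55506691, MMP9 at chr20:46008908-46016561 and MMP14 at chr14:22836557-22849027. TIMP1 lies at chrX:47582313-47586789, TIMP2 at chr17:78852977-78925387 and TIMP3 at chr22:32801701-32863043. In SUM149PT the neighbours of the chromosome 11 group did not share a direction: MMP7 and MMP13, at its ends, were lower in CSCs, while MMP10 and MMP1, in its middle, were higher. MMP10, stromelysin 2, measured 1.93, 1.64 and 2.33 FPKM in CSCs and 0.125, 0.0648 and 0.297 FPKM in non-CSCs and was listed at 0 in the other 9 libraries. MMP12, too low to test in SUM149PT, was at 0.0959 to 0.139 FPKM in its CSCs and 0.0167 to 0.0408 FPKM in its non-CSCs. MMP8 and MMP20 were at most 0.0194 FPKM and MMP27 was listed at 0 in all 15 libraries.

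**Figure D4:**
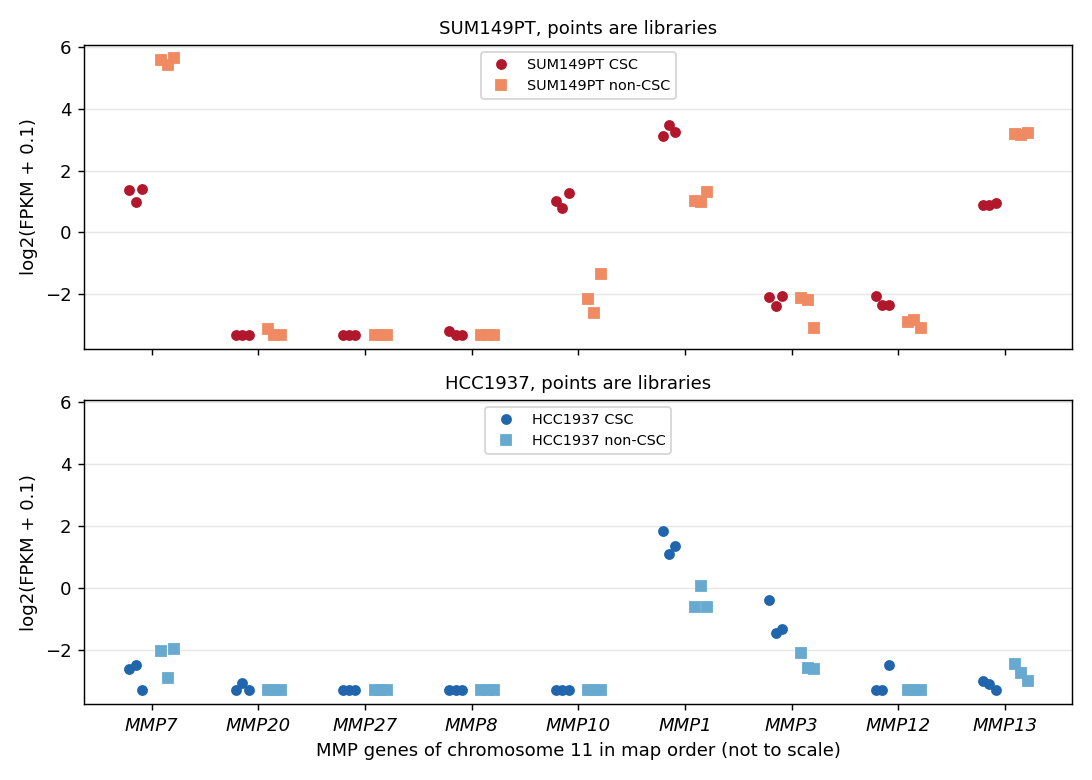
Levels on the log2(FPKM + 0.1) scale (vertical axis) of the 9 metalloproteinase genes of chromosome 11 in map order (horizontal axis, not to scale) in SUM149PT (top) and HCC1937 (bottom); each point is a library. In SUM149PT the CSC points are lower than the non-CSC points at MMP7 and MMP13 and higher at MMP10 and MMP1. They are also higher at MMP12, at levels of at most 0.139 FPKM. In HCC1937 MMP1 is the only gene of the group above 1 FPKM in any library.

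Upstream stretches are shown for MMP7 and MMP10, chosen because they moved in opposite directions in SUM149PT. Promoter sequences in RefSeq (GRCh38.p14, 250 bases before to 50 after the start) were matched for 4 of the 10 members (MMP7, MMP14, TIMP1 and TIMP3) and for 11 of 17 other MMP and TIMP genes. They were searched on both strands for TGANTCA and for TATAAA, which do not overlap here. TGANTCA is a loose pattern for the AP-1 motif that allows any base in the middle. Capitals mark the matches in the 90 bases before the start.
MMP7: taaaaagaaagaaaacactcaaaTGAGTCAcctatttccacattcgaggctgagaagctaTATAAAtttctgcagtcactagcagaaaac
MMP10: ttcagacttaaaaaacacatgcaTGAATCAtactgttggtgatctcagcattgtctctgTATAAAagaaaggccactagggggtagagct
Both stretches are on the minus strand, at chr11:102530748-102530837 for MMP7 and chr11:102780629-102780718 for MMP10. Each promoter had 1 TGANTCA match, beginning at base -67 in both, and 1 TATAAA match, at base -30 in MMP7 and -31 in MMP10. The TGANTCA matches differed in the middle base, TGAGTCA in MMP7 and TGAATCA in MMP10. MMP14, TIMP1 and TIMP3 had neither motif in their windows. Among all 35116 promoters of this length, 7.71% held TGANTCA and 11.5% TATAAA. MMP20, at most 0.0194 FPKM in these libraries, also held both motifs, at bases -112 and -72.

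Some members share their place with other genes, and the sources used here do not say whether counting used the strand. TIMP1 overlaps SYN1 on the opposite strand, and SYN1 was at 3.59 ± 0.230 FPKM in SUM149PT non-CSCs and 0.292 ± 0.0878 in CSCs, small beside TIMP1. Its part in the TIMP1 values was not tested. TIMP3 overlaps SYN3 on the opposite strand, which was at most 0.0452 FPKM. WTAPP1, opposite MMP1 and MMP3, was at most 0.0893 FPKM in any library. MMP2, MMP9 and TIMP2 overlap genes that are absent from the table, so the levels of these are not known. Among them, CEP295NL lies on the same strand as TIMP2 and AC007336.3 on the same strand as MMP2.

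Other metalloproteinase and TIMP genes were counted from a list of 17, of which 7 passed the expression minimum in each line. In SUM149PT, 3 were called higher and 3 lower in CSCs, beside 34.9% of all genes called (12.8% higher and 22.1% lower), with a median log2 fold change of 0.42 beside -0.11 for all genes. MMP10 (log2 fold change 3.06 ± 0.34, adjusted p = 3.92e-04) and MMP19 (2.37 ± 0.18, adjusted p = 7.75e-05) rose most. MMP25, which is held in the membrane by a lipid anchor, fell by 3.52 ± 0.17 on the log2 scale (adjusted p = 1.55e-05), and MMP15, a membrane type enzyme like MMP14, fell by 3.06 ± 0.08 (adjusted p = 2.86e-06), from 46.4 ± 1.46 to 5.49 ± 0.478 FPKM. In HCC1937, beside 8.71% of all genes, 1 was called higher, the membrane type MMP16 (1.40 ± 0.15, adjusted p = 0.00212), which was also called higher in SUM149PT (1.56 ± 0.10, adjusted p = 4.12e-05), and 1 lower, MMP24 (-1.05 ± 0.09, adjusted p = 8.34e-04), which was at most 0.217 FPKM. The median there was -0.04, beside -0.03 for all genes.

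Genes that activate or restrain proteases around the cell were counted from a list of 14. In SUM149PT, 4 were called higher and 5 lower of 13 tested, 69.2% beside 34.9% of all genes (median log2 fold change -0.23, beside -0.11). PLAU, the urokinase that makes plasmin, rose from 61.5 ± 5.41 to 216 ± 6.64 FPKM (log2 fold change 1.82 ± 0.08, adjusted p = 1.17e-05), and SERPINE2, an inhibitor of urokinase and thrombin, rose from 5.47 ± 0.359 to 17.2 ± 0.336 FPKM (1.63 ± 0.07, adjusted p = 9.23e-06). SERPINB2, another urokinase inhibitor, fell from 215 ± 11.1 to 7.40 ± 0.263 FPKM (-4.84 ± 0.07, adjusted p = 1.40e-06), and the proprotein convertase PCSK5 fell from 1.32 FPKM to 0.0543 FPKM (-3.22 ± 0.16, adjusted p = 1.66e-05).

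In HCC1937, 4 of that list were called higher and 2 lower of 12 tested, beside 8.71% of all genes (median -0.06, beside -0.03). TFPI2, a Kunitz inhibitor deposited in the matrix, rose from 2.94 ± 0.639 to 12.8 ± 0.414 FPKM (log2 fold change 2.11 ± 0.17, adjusted p = 7.75e-04) and SERPINE2 from 6.13 ± 0.705 to 22.4 ± 0.257 FPKM (1.86 ± 0.10, adjusted p = 2.52e-04). SERPINB2 (-1.61 ± 0.14, adjusted p = 0.00103) and PCSK5 (-1.34 ± 0.20, adjusted p = 0.00640) fell, as in SUM149PT. PLAU went the other way than in SUM149PT, from 55.3 ± 2.32 to 34.5 ± 3.38 FPKM. Its log2 fold change of -0.68 ± 0.09 (adjusted p = 0.00438) fell short of the fold limit. The difference between the lines was 2.50 ± 0.12 (adjusted p = 1.17e-07).

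Of 12 ADAM and ADAMTS proteases, 3 were called higher and 4 lower of 11 tested in SUM149PT, 63.6% beside 34.9% of all genes (median log2 fold change -0.55, beside -0.11). In HCC1937, 3 were called higher and 0 lower of 9 tested, 33.3% beside 8.71% (median 0.08, beside -0.03). ADAM12 rose in both lines (1.84 ± 0.11, adjusted p = 3.07e-05, and 2.20 ± 0.19, adjusted p = 0.00103), and so did ADAM19 (2.08 ± 0.06, adjusted p = 4.08e-06, and 1.14 ± 0.10, adjusted p = 8.79e-04). ADAMTS4, an aggrecanase that TIMP3 inhibits, fell in SUM149PT from 12.3 ± 0.864 to 0.527 ± 0.133 FPKM (-4.33 ± 0.16, adjusted p = 7.15e-06). In HCC1937 it rose from 0.700 ± 0.144 to 2.56 ± 0.244 FPKM (1.75 ± 0.16, adjusted p = 0.00109). ADAMTS4 thus went opposite to TIMP3 in each line, whereas ADAM12 and ADAM19 rose with TIMP3 in SUM149PT and against it in HCC1937. A link to TIMP3 was not tested. ADAM8 fell in SUM149PT (-2.68 ± 0.06, adjusted p = 1.90e-06).

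Among 13 transcription factors, RUNX2 and genes of the AP-1 and ETS families, known to act on metalloproteinase promoters, 5 were called higher and 0 lower in SUM149PT CSCs (median log2 fold change 0.44, beside -0.11) and 1 higher and 0 lower in HCC1937 CSCs (0.21, beside -0.03). All calls on this list were higher. They made up 38.5% and 7.69% of it, near the 34.9% and 8.71% of all genes called in either direction. The shares of all genes called higher were 12.8% and 2.71%. Of the 13 that passed the p limit in SUM149PT, FOSL1, JUNB and JUND were lower, short of the fold limit. Of the 10 that passed it in HCC1937, FOS, FOSB, ETS2 and ETV4 were lower, also short of the fold limit. ETV1 rose in both, from 0.504 ± 0.0392 to 3.14 ± 0.125 FPKM (2.42 ± 0.07, adjusted p = 3.67e-06) and from 0.462 ± 0.0574 to 1.20 ± 0.0427 FPKM (1.22 ± 0.09, adjusted p = 7.07e-04). ETS1 rose in SUM149PT from 18.4 ± 0.187 to 48.0 ± 1.39 FPKM (1.37 ± 0.05, adjusted p = 7.42e-06), and in HCC1937 its log2 fold change of 0.97 ± 0.07 (adjusted p = 6.05e-04) fell short of the fold limit.

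Genes with group means most like those of 4 members with wide ranges were sought over the 5 groups, by the root mean square difference of log2 levels centred on each gene's mean. For MMP2, whose means spanned 7.60 log2 units, they were SRPX (0.22), LEPREL2 (0.46) and CCAT1 (0.49). For MMP9 (7.06 units) they were MLPH (0.25), ZNF385A (0.27) and GSAP (0.30), and for MMP13 (6.51 units) FABP4 (0.36), BCL2A1 (0.51) and SNAI1 (0.53). MMP7 had the widest span (8.36 units) and the loosest neighbours, CES1 (0.74), CPE (0.83) and SPINK13 (0.88).

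Markers of epithelial and mesenchymal cells moved with the fractions, and their part in these results was not tested. Of 7 epithelial markers, 6 were called lower in CSCs in each line and 0 higher, beside 22.1% of all genes called lower and 12.8% higher in SUM149PT, and 935 of 15582 genes lower and 2.71% higher in HCC1937. Their sum was 129, 134 and 131 FPKM in SUM149PT CSCs against 1825, 1782 and 1805 in non-CSCs, and 635, 588 and 532 against 1617, 1639 and 1403 in HCC1937. The most abundant were KRT19 in both SUM149PT fractions, KRT8 in HCC1937 CSCs and KRT18 in HCC1937 non-CSCs, and none of the 7 was at 0 throughout a group.

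Of 10 mesenchymal and fibroblast markers, 7 were called higher and 1, DCN, lower of 9 tested in SUM149PT, beside 12.8% and 22.1% of all genes, and 4 higher and 0 lower of 6 tested in HCC1937, beside 2.71% higher and 935 of 15582 genes lower. Their sum, mostly VIM, was 2279, 2459 and 2342 FPKM in SUM149PT CSCs against 297, 295 and 359 in non-CSCs, and 1060.1, 929 and 905 against 135, 205 and 178 in HCC1937. PDGFRA and DCN were listed at 0 in all HCC1937 non-CSC libraries. In SUM159PT the epithelial sum was 293, 277 and 292 FPKM, mostly KRT18 (153 ± 7.44) and KRT8 (132 ± 2.01). The mesenchymal sum, mostly VIM, was 1136, 1132 and 1111 FPKM. EPCAM and CDH1 were at 0.0467 and 0.0681 FPKM there, against 2.49 and 3.32 in SUM149PT CSCs. In that comparison 2 of 7 epithelial markers were called higher and 5 lower, and 1 of 10 mesenchymal markers higher and 6 lower. Of all genes, 20.0% were called higher and 43.5% lower.

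Of 7 leukocyte markers, CD14 and CD68 were the only ones with a group mean above 1 FPKM, in all 5 groups, and CD3E and MS4A1 were listed at 0 in all 15 libraries. LYZ was also at 0 in SUM149PT CSCs, and PTPRC and LYZ in SUM159PT. In SUM149PT, 2 of 2 tested were called lower in CSCs, beside 22.1% of all genes, and in HCC1937 0 of 3 were called by limma, beside 8.71% of all genes. The leukocyte sum was 19.2, 19.3 and 18.2 FPKM in SUM149PT CSCs, 101, 95.6 and 103 in non-CSCs, 108, 107 and 94.0 in HCC1937 CSCs, 71.5, 73.4 and 68.2 in non-CSCs, and 50.2, 54.0 and 47.8 in SUM159PT. The 4 endothelial markers summed to at most 1.83 FPKM in any library and none had a group mean above 1 FPKM, with CDH5 listed at 0 in SUM159PT. They were called lower in CSCs for 3 of 3 tested in SUM149PT, beside 22.1% of all genes, and 1 of 2 in HCC1937, beside 935 of 15582 genes.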

How the data were processed

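RNA of the 15 libraries was selected with oligo(dT) beads. The authors deposited FPKM per gene symbol; per the labels, Bowtie2 and the GRCh38 build were used, and the quantification tool and its use of strand are not given in the sources used here. Of the ribosomal protein genes of the table, 9 of 82 were listed at 0 in some library, so a 0 is described only as listed. No read counts were recovered, and precision rests on the 3 libraries per group.

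Groups and replicate numbers came from the labels. Values were fitted as log2(FPKM + 0.1) with limma 3.58.1 (lmFit, eBayes) in R 4.3.3, for genes whose mean over the libraries fitted reached 0.1 FPKM: 6 per line, 12 for the difference between lines and 9 for the CSC-labelled groups. P-values are two-sided, adjusted by Benjamini-Hochberg over all genes tested. The fits were tested on simulated data. All 10 members are named, and from each list the 2 called genes with the largest absolute log2 fold change per direction and line. The members and lists were chosen with earlier results of these data known. Positions, exons and coding stretches came from GENCODE v29. Alternatives were the pseudocount, expression minimum, scaling, moderation, limits, libraries fitted, a replicate block and leaving out each library. Figures used matplotlib 3.10.9 in Python 3.11.15.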

Additional observations from a re-analysis of the deposited data

Results flagged for a closer look

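The CSC effect, as a log2 fold change over non-CSCs on the log2(FPKM + 0.1) scale, differed between SUM149PT and HCC1937 for 8 of the 10 genes in the test of the difference over the 12 sorted libraries, a test that 61.1% of all genes passed. The effect in SUM149PT minus that in HCC1937 was -0.30 for MMP2, -3.80 for MMP7, -3.34 for MMP9, -1.86 for MMP13, -1.40 for MMP14, -1.12 for TIMP1, 0.40 for TIMP2 and 3.26 for TIMP3. The sign of the effect itself was opposite in the lines, and called in each, for TIMP3. For MMP7 and MMP13 the HCC1937 levels lay below the minimum for a test within that line. The difference for MMP13 was lost with a pseudocount of 0.01 (-0.86, adjusted p = 0.269). That for MMP2 took the opposite sign with a pseudocount of 1 (0.15, adjusted p = 0.104). It was also lost with replicate numbers as a block (adjusted p = 0.0631). Without SUM149PT CSC replicate 1 (adjusted p = 0.0588) or SUM149PT non-CSC replicate 2 (adjusted p = 0.0536) it did not pass either.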

How the results depend on the processing

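The 7 calls in SUM149PT held under every alternative run, and 7 to 7 members were called without each library in turn. Without each library, 3 to 4 members were called in HCC1937, 7 to 9 for the difference between lines, 5 to 6 for SUM159PT against SUM149PT CSCs, 7 to 7 against HCC1937 CSCs and 7 to 8 between the sorted CSC groups. Of the fold changes of members still tested under an alternative, 987 kept direction and call, 38 lost the call, 17 gained it and 12 turned in direction. Not counted are calls of MMP3 and MMP13 that were lost because the gene fell below a minimum mean of 1 FPKM. Causes were not tested. Read depth is unknown, and 3 libraries per group limit precision.

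Genes called in SUM149PT, 5596, were 3109 with a pseudocount of 1, 3623 with a minimum mean of 1 FPKM, 3292 with the adjusted p limit at 0.0001 and 11993 without the fold limit. In HCC1937, 1357 became 626, 872, 0 and 3985. With that limit of 0.0001, limma called 0 members in HCC1937, where no adjusted p was below 1.28e-04 and the unadjusted p was under 0.05 for 5886 genes; for the difference between lines it called 5 members and 3530 genes, against 8 and 10053. Between the sorted CSC groups 6907 became 4287 with a pseudocount of 1 and 12048 without the fold limit.

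With a pseudocount of 1 the difference between lines for MMP2 was 0.15. For SUM159PT against SUM149PT CSCs, MMP14 was 0.054 and TIMP1 1.05 (newly called) with upper quartile scaling; with quantile normalization MMP3 was 0.080, MMP7 0.43, TIMP1 -0.085 and TIMP2 -0.095; with a common sum TIMP1 was -0.45, TIMP2 -0.53, and MMP14 -1.43 and MMP3 -1.65 (both newly called). Against HCC1937 CSCs, TIMP2 was 0.25 with upper quartile scaling and MMP14 -0.80 with a common sum. Without each library in turn, MMP3 in SUM149PT ranged from -0.013 to 0.48 and MMP9 in HCC1937 from -0.092 to 0.11.

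With replicate numbers as a block within each line, 7 members and 5584 genes were called in SUM149PT, 4 and 1268 in HCC1937, and 8 and 9648 for the difference between lines, with MMP2 lost (adjusted p = 0.0631) and MMP3 gained (adjusted p = 0.0492). The deviations of same-numbered libraries correlated across 12164 genes at 0.143, 0.022 and 0.130 in SUM149PT and -0.130, -0.051 and -0.028 in HCC1937. Those of differently numbered libraries lay between -0.199 and 0.065 in SUM149PT and between -0.085 and 0.127 in HCC1937. The highest value in SUM149PT and the lowest in HCC1937 thus came from same-numbered libraries. The numbers were not used as pairs in the main fits, and genes are not independent replicates.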
